A study of Mus musculus with 6 samples.

Results

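The integrated stress response and the unfolded protein response were followed through 38 genes in cochlear explants of neonatal mice after hair cell (HC) injury with neomycin. The genes were chosen by symbol, as targets of the transcription factor ATF4, as sensors of stress in the endoplasmic reticulum (ER) and as chaperones and quality control factors of the ER. The rule used no measured value, but the list was drawn up with earlier results of these data known. All 38 were found among the 24421 gene symbols of the count table and all 38 were among the 15988 genes with enough counts to be tested. The lowest count of any of them in a library was 83.

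The explants were cochleae of wild-type mice at postnatal day 2, dissected free of the tectorial membrane, the modiolus and the early stria vascularis. They were kept for 12 h in culture, exposed to neomycin at 1 mM over 6 h and cultured for 5 further days with EdU, a label of DNA synthesis, at 10 μM. The control group (n = 3) was taken as explants without neomycin and the neomycin group (n = 3) as those that received it, since the labels name the groups control and neomycin but give the same protocol text for all 6 samples. Each sample was a pool of 6 to 8 cochleae, so a value is an average over many cell types, and fewer cells of a type and less RNA per cell cannot be told apart. The libraries held 50471116 to 66068108 counts, and no pair of replicates was as alike as a repeat of 1 library would be (mean chi-square of 13.7 to 46.7 for a gene). Nothing in the labels says whether the pools came from separate litters or cultures, so the p-values measure only the spread between these samples.

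Proteins that enter the secretory pathway fold in the ER with the help of chaperones, and disulfide isomerases join their cysteines. When unfolded proteins build up, 3 sensors in the ER membrane respond: PERK (Eif2ak3), a kinase that phosphorylates the translation factor eIF2, IRE1 (Ern1), which splices the mRNA of Xbp1, and ATF6, which is cut by proteases and enters the nucleus. PERK shares eIF2 with other kinases, and this common branch is the integrated stress response, in which ATF4 is translated and raises genes of amino acid synthesis and transport. Aminoglycosides such as neomycin bind ribosomal RNA and kill HCs, and the sampling time here was days after the exposure.

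Of the 38 genes, 10 were higher and 4 were lower in the neomycin group at an adjusted p-value under 0.05 (edgeR's quasi-likelihood test with Benjamini-Hochberg adjustment over all genes tested), and 24 did not pass. The 10 higher genes were 26.3% of the members, where 12.9% of all genes tested were higher, and the 4 lower genes were 10.5%, where 16.1% of all genes were lower. The higher genes were mostly folding factors of the ER (Hspa5, Hsp90b1, Calr, Sdf2l1, Manf, Pdia3, Pdia4 and Pdia6) with 2 enzymes of serine synthesis (Phgdh and Psph). The lower genes were the sensors Ern1 and Atf6, the amino acid transporter Slc7a5 and the stress effector Sesn2. The 6 transcription factors of the list, Atf4, Ddit3 and Xbp1 among them, did not pass.

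The changes were small. With the further threshold of a fold change over 1.5, Ern1 alone was differentially expressed, and it was lower, where 6.6% of all genes were lower by this rule. No member was higher by this rule, with edgeR, with DESeq2 or at an unadjusted p-value under 0.05, where 2.24% of all genes were higher with edgeR, and the largest upward change was the 1.41-fold of Pdia6. For 15 of the 38 members (39.5%) control and neomycin values did not overlap, 11 of them higher and 4 lower after neomycin, where 43.5% of all genes tested did not overlap. The median log2 fold change was 0.06 over the members and -0.00408 over all genes tested. Scaled by library totals alone, 6 members were higher and 5 lower, so that 54.5% of the calls were upward against 71.4% with TMM scaling. The calls over all genes moved as well, to 8.44% higher and 20% lower by library totals.

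**Figure D1:**
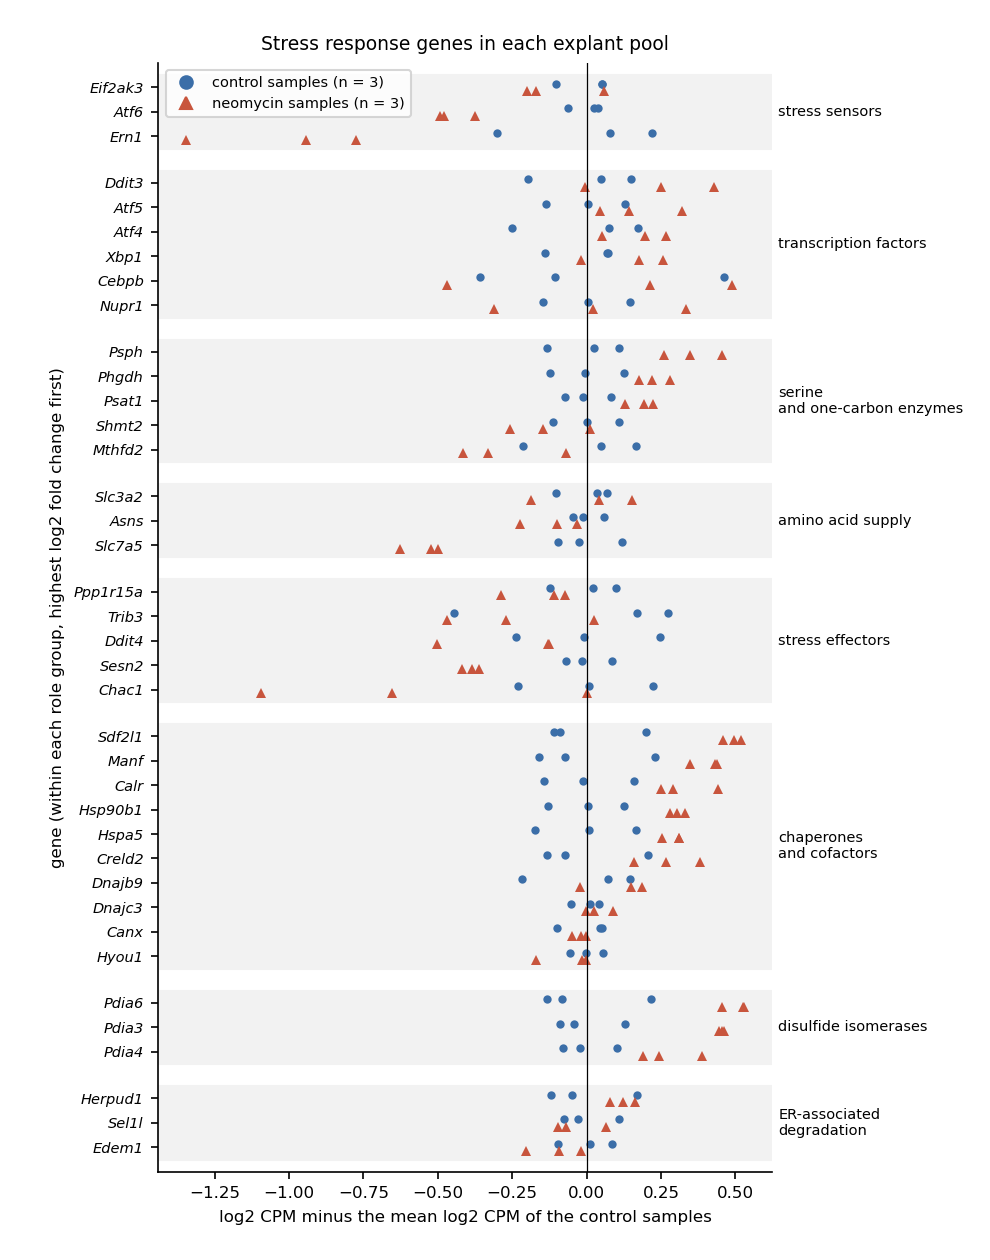
Log2 CPM (library-scaled counts) of the 38 genes in each sample, minus the mean log2 CPM of the control samples, with circles for the 3 control and triangles for the 3 neomycin samples and the genes grouped by role. The triangles of the disulfide isomerases and of 5 chaperones lie to the right of every circle, and those of Ern1, Atf6, Slc7a5 and Sesn2 to the left of every circle.

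Of the sensors, Ern1 and Atf6 fell and Eif2ak3 did not pass. Ern1 (chr11:106394650-106487852, minus strand, mm10) is the kinase and ribonuclease IRE1. Levels are given in CPM, the counts of a gene scaled to the TMM-adjusted size of the library. Ern1 was at 10.4, 9.39 and 7.22 CPM in control samples 1, 2 and 3 and 5.20, 4.63 and 3.50 CPM in neomycin samples 1, 2 and 3. The 3 neomycin samples lay below every control sample, and the mean fell from 8.99 ± 1.61 to 4.44 ± 0.863 CPM (SD, n = 3 each), which is 2.03-fold lower (log2 fold change -1.02, SE 0.18, adjusted p = 0.00178). Atf6 (chr1:170704674-170867771, minus strand) encodes the membrane-bound factor that is released by proteolysis. It was at 67.9, 67.3 and 63.3 CPM in control and 51.0, 47.0 and 47.5 CPM in neomycin samples. The groups were well separated, and the log2 fold change was -0.45 (SE 0.07, adjusted p = 0.00082). Eif2ak3, which encodes PERK, was at 44.2, 44.2 and 39.7 CPM in control and 37.1, 44.4 and 37.9 CPM in neomycin samples. Here the groups overlapped, since neomycin sample 2 had the highest value of all 6, and the log2 fold change of -0.10 had a 95% interval from -0.29 to 0.09 (adjusted p = 0.411). The sensors have long mRNAs, with a median exon length of 8173 bases against 4253 over the genes tested, and with a correction for exon length the median of the 3 moved from -0.45 to -0.28, with the same 2 genes called.

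The transcription factors of both responses did not pass the test. In fits without a replicate block, none of the 6 passed with edgeR, DESeq2 or limma-voom, and 0 had an unadjusted p-value under 0.05 with edgeR, although all 6 log2 fold changes were above 0 (median 0.15). Atf4, the central factor of the integrated stress response, was at 188, 235 and 252 CPM in control and 231, 256 and 269 CPM in neomycin samples. The ranges overlapped, and the interval of the log2 fold change ran from -0.06 to 0.39 around 0.16 (adjusted p = 0.259). Ddit3 encodes CHOP, a factor linked to cell death under lasting ER stress, and had the highest log2 fold change of this group. Its levels were 28.2, 33.5 and 35.9 CPM in control and 32.2, 38.5 and 43.5 CPM in neomycin samples. With neomycin sample 1 inside the control range, the log2 fold change was 0.23 (SE 0.12, adjusted p = 0.157). It passed without that sample (log2 fold change 0.34, adjusted p = 0.0377), where it was the 1 transcription factor called. Exons of Ddit3 overlap those of Mars on the other strand, and the sources used here do not state whether the counting used strand.

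Xbp1, whose spliced mRNA encodes the active factor of the IRE1 branch, was at 194, 224 and 225 CPM in control and 211, 242 and 255 CPM in neomycin samples. These ranges overlapped too (log2 fold change 0.14, SE 0.09, adjusted p = 0.266). Counts per gene do not separate spliced from unspliced Xbp1, so the activity of IRE1 was not measured. Nupr1, a small stress-induced chromatin protein, had the smallest value of the group at 0.03 (SE 0.13, adjusted p = 0.874), with 157, 174 and 192 CPM in control and 140, 177 and 219 CPM in neomycin samples. Its neomycin samples lay on both sides of the control range. Atf5 (log2 fold change 0.17) and Cebpb (0.09), both bZIP factors, were also not called, and Cebpb varied most of the group between replicates, with an SE of 0.22. After the correction for exon length the median of the 6 factors was -0.00339.

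**Figure D2:**
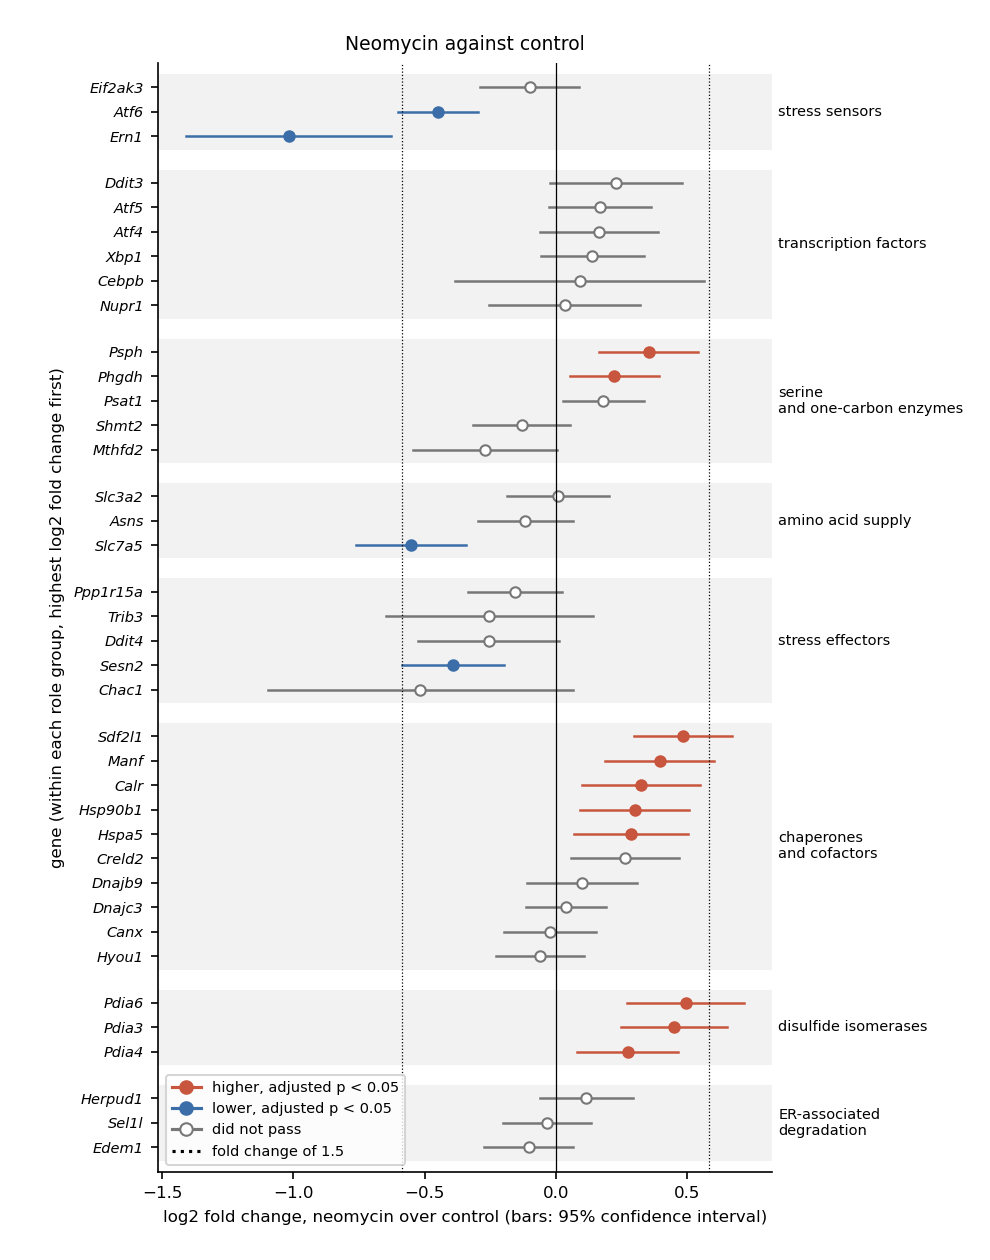
Log2 fold change of each gene, neomycin over control, with its 95% confidence interval as a bar, filled red or blue where the adjusted p-value was under 0.05, and dotted lines at a fold change of 1.5. The disulfide isomerases and 5 of 10 chaperones are filled red, all 6 transcription factors are open, and Ern1 is the 1 filled point beyond a dotted line.

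Among the metabolic targets of ATF4, the serine synthesis enzymes were higher or above 0 and the amino acid transporter Slc7a5 was lower. Phgdh, Psat1 and Psph catalyse the successive steps from a glycolytic intermediate to serine. Psph, the last enzyme (chr5:129765558-129787449, minus strand), was at 28.6, 31.9 and 33.8 CPM in control and 37.6, 39.9 and 43.0 CPM in neomycin samples. Every neomycin sample was above every control sample (log2 fold change 0.35, SE 0.09, adjusted p = 0.0103). The first enzyme, Phgdh, rose less, from 128 ± 11.1 to 150 ± 5.37 CPM, just inside the threshold (log2 fold change 0.22, SE 0.08, adjusted p = 0.0498), and did not pass in 10 of the 17 alternative analyses. Psat1, the middle enzyme, did not overlap between the groups but did not pass (log2 fold change 0.18, SE 0.07, adjusted p = 0.0739). The exons of Psph overlap those of Cct6a on the other strand.

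The mitochondrial one-carbon enzymes had values below 0 and did not pass. Mthfd2, a folate enzyme that is low in most adult tissues, was at 13.3, 17.3 and 15.96 CPM in control and 11.6, 14.7 and 12.3 CPM in neomycin samples. The groups overlapped (log2 fold change -0.27, SE 0.13, adjusted p = 0.127). Shmt2, which converts serine to glycine, stood at -0.13 on the log2 scale (adjusted p = 0.274). In all, 2 of the 5 serine and one-carbon genes were higher and 0 lower. The count of lower genes was 0 also at an unadjusted p-value under 0.05 and with DESeq2. The count of higher genes was 1 by library totals alone and with the correction for exon length. Without neomycin sample 3 it was 0, with Psph at an adjusted p-value of 0.0510 by edgeR, where 7.4% of all genes tested were higher.

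Slc7a5 (chr8:121881150-121907694, minus strand) encodes the light chain of the large neutral amino acid transporter LAT1, and Slc3a2 the heavy chain that carries it to the plasma membrane. Slc7a5 was at 21.7, 18.7 and 19.7 CPM in control and 12.9, 14.1 and 13.9 CPM in neomycin samples. It fell 1.47-fold without overlap (log2 fold change -0.55, SE 0.10, adjusted p = 0.00173). Its partner Slc3a2 was at 97.8, 108 and 110 CPM in control and 92.3, 108 and 117 CPM in neomycin samples, and the neomycin range enclosed the control range (log2 fold change 0.01, SE 0.09, adjusted p = 0.957, 95% interval -0.19 to 0.20). Asns, asparagine synthetase, a standard readout of ATF4, had a log2 fold change of -0.12 (SE 0.08, adjusted p = 0.321).

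The stress effectors that follow ATF4 and CHOP had values below 0 throughout, and 1 of the 5 passed. Sesn2, sestrin 2, restrains mTORC1 when leucine is scarce and was at 19.8, 20.6 and 22.0 CPM in control and 15.5, 16.2 and 15.9 CPM in neomycin samples. It fell without overlap (log2 fold change -0.39, SE 0.09, adjusted p = 0.00718). Chac1, which degrades glutathione, had the lowest estimate and the widest interval. It was at 2.84, 3.35 and 3.90 CPM in control and 1.56, 3.34 and 2.12 CPM in neomycin samples. Because neomycin sample 2 lay among the controls, its log2 fold change of -0.52 (SE 0.27) did not pass (adjusted p = 0.166), and without that sample it was -0.87 and passed (adjusted p = 0.0457). Ppp1r15a encodes GADD34, the phosphatase subunit that reverses the phosphorylation of eIF2, and was nearest to 0 in this group. Its levels were 51.6, 57.0 and 60.2 CPM in control and 46.1, 53.4 and 52.0 CPM in neomycin samples. The groups overlapped (log2 fold change -0.16, SE 0.08, adjusted p = 0.178), as did those of the pseudokinase Trib3 (-0.25, adjusted p = 0.317) and of the mTORC1 inhibitor Ddit4 (-0.26, adjusted p = 0.140).

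The effectors have short mRNAs, with a median exon length of 2125 bases, and their count moved with the correction for exon length. With it, 4 of the 5 were lower, since Chac1 (log2 fold change -0.75), Ddit4 (-0.47) and Ppp1r15a (-0.24) also passed. Over all genes 13.1% were lower with this correction. Leaving out each library in turn gave 1 or 2 lower genes, and Trib3 was not called in any of these fits.

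Promoters of some of these genes hold the letters of the ATF4 response element. Promoters of 250 bases before to 50 bases after the annotated start were taken from RefSeq (GRCm38.p6, the mm10 build), and 34 of the 38 members had one, with none matched for Atf6, Slc7a5, Hyou1 and Manf. The core of the CARE, the element bound by ATF4 with a C/EBP partner, was searched as TGATGNAAN on both strands, and 5 members held it (14.7%), against 2.81% of the 11955 tested genes with a promoter. The matches upstream of the start are shown with up to 20 bases on either side, in the direction of the gene, with the match in capitals, because these are the members where the ATF4 element is near the start, and on the opposite strand the element reads in reverse. The windows are at chr2:119351028-119351076 (plus strand) for Chac1, chr6:7693210-7693252 (minus strand) for Asns, chr7:126625553-126625601 (minus strand) for Nupr1 and chr8:94386296-94386344 (plus strand) for Herpud1.
Chac1: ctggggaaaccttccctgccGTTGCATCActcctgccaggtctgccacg
Asns: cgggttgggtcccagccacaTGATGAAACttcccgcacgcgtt
Nupr1: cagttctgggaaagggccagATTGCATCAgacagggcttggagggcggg
Herpud1: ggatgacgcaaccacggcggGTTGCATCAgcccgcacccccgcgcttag

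The fifth match, in Trib3, lay in the transcribed part, 14 bases after the start. None of these 5 genes passed the test, by edgeR, DESeq2 or limma-voom, and their median log2 fold change was -0.12. A match describes letters and not binding, and genes without a match may hold the element elsewhere.

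The folding machinery of the ER gave most of the higher members. Of 10 chaperones and cofactors, 5 were higher and 0 lower (median log2 fold change 0.27), and of 3 disulfide isomerases 3 were higher (median 0.45). At an unadjusted p-value under 0.05, and with DESeq2, 6 chaperones were higher and 0 lower. Together, 8 of these 13 genes were higher and 0 lower, with a median of 0.29, and of the other 25 members 2 were higher and 4 lower, with a median of -0.10. The RNA of the folding genes was abundant. The summed level of the 10 chaperones and cofactors was 6704 ± 567 CPM in control and 8011 ± 89.3 CPM in neomycin samples, and that of the 3 isomerases 3332 ± 312 and 4506 ± 10.6 CPM. In both sums the 3 neomycin samples lay above the 3 control samples.

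Many promoters of these genes carry an ER stress response element (ERSE), which is bound by ATF6 or XBP1 with the CCAAT-binding factor NF-Y. It was searched as CCAAT and, after 9 letters of any kind, CCACG, on both strands. The element was in 7 of the 34 members with a promoter (20.6%), all of them folding genes, and in 0.167% of the tested genes with a promoter. As the members were chosen as ATF4 targets and ER chaperones, such an excess, here and for the CARE, describes the list and not these data. Annotated starts here are those of RefSeq. The GENCODE spans of Hspa5, and of Asns and Nupr1 above, begin further upstream, so the windows of these genes lie inside those spans. The windows are shown in the same way, to set the element beside the values of each gene. They are at chr2:34772005-34772063 (plus strand) for Hspa5, chr10:86705618-86705676 and chr10:86705513-86705571 (minus strand) for the sites 1 and 2 of Hsp90b1, chr8:84847055-84847113 (minus strand) for Calr, chr12:17266471-17266529 (plus strand) for Pdia6, chr15:88819500-88819558 (plus strand) for Creld2, chr14:118937807-118937865 (plus strand) for Dnajc3 and chr11:50325780-50325838 (minus strand) for Canx.
Hspa5: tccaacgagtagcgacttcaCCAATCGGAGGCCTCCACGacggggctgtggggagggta
Hsp90b1 site 1: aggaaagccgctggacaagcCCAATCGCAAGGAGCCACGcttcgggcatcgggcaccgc
Hsp90b1 site 2: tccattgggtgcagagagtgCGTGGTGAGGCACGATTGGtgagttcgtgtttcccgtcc
Calr: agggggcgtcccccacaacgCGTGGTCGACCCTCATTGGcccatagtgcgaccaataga
Pdia6: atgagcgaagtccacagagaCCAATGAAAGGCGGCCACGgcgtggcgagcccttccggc
Creld2: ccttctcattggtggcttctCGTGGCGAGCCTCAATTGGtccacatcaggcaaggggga
Dnajc3: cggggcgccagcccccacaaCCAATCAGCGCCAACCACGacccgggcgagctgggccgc
Canx: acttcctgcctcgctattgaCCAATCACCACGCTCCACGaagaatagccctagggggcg

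Of these 7 genes, Hspa5, Hsp90b1, Calr and Pdia6 were higher and Creld2, Dnajc3 and Canx did not pass, with a median log2 fold change of 0.29 over the 7. Of the 27 members with a promoter and without the element, 5 were higher and 2 lower, with a median of 0.03. The 5 higher genes without it were Sdf2l1, Pdia3, Pdia4, Phgdh and Psph. Most of the 27 were not folding genes, so this contrast cannot be told apart from that of the role groups. Among the folding genes with a promoter and without the ERSE, Sdf2l1 (log2 fold change 0.48), Pdia3 (0.45) and Pdia4 (0.27) were higher. The remaining one, Dnajb9 (0.10), did not pass. The shorter CCAAT box, which is also part of each ERSE, was in 25 of the 34 members (73.5%) against 41.9% of tested genes with a promoter. A relaxed ERSE with 1 letter free in its last part added Sel1l, for 8 members (23.5%) against 0.46% of tested genes. The UPRE, searched as TGACGTGG, was in none of the 34 promoters and in 1.05% of those of tested genes, and the CRE, searched as TGACGTCA, was in that of Ppp1r15a and in 3.41%.

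**Figure D3:**
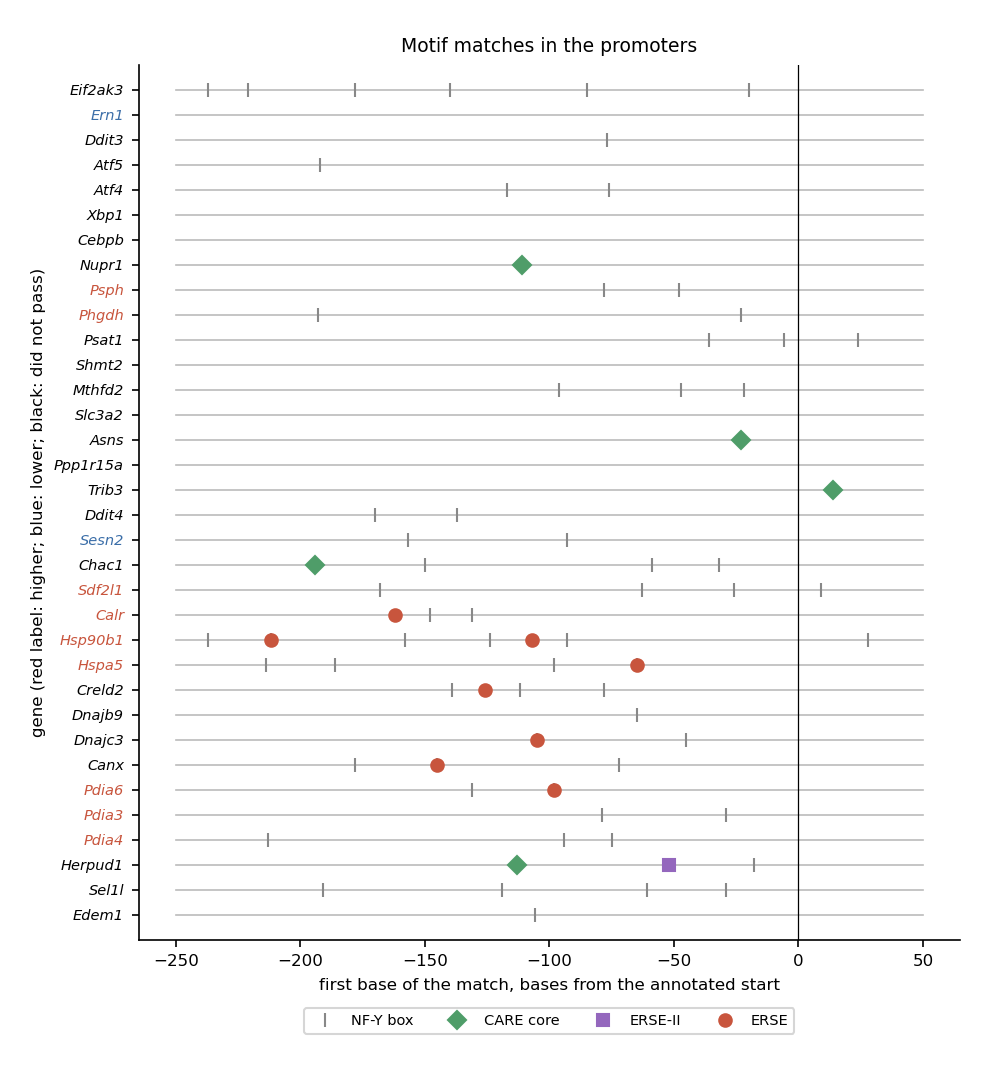
First base of each motif match, in bases from the annotated start, in the promoters of the 34 members that had one, with gene labels in red where the gene was higher, in blue where it was lower and in black where it did not pass. The circles (ERSE) stand on 7 folding genes, 4 of them in red, and the diamonds (CARE core) on 5 genes in black, while the CCAAT box (vertical strokes, labelled by its factor NF-Y) is on 25 genes.

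Hspa5 (chr2:34771970-34777547, plus strand) encodes BiP, the main chaperone of the ER, which also holds the sensors inactive. It was at 1328, 1505 and 1679 CPM in control and 1785, 1858 and 1856 CPM in neomycin samples. Every neomycin sample was above every control sample, and the rise was 1.22-fold (log2 fold change 0.29, SE 0.10, adjusted p = 0.0493). The gene lost its call in 7 of the 17 alternatives, with an adjusted p-value of up to 0.166 when a library was left out, and kept it without control sample 3. The highest change among the chaperones was that of Sdf2l1 (chr16:17130138-17132383, minus strand), a partner of the BiP cochaperones. It was at 46.2, 45.6 and 56.5 CPM in control and 69.3, 67.6 and 70.4 CPM in neomycin samples. The groups were separate, and the rise was 1.40-fold (log2 fold change 0.48, SE 0.09, adjusted p = 0.00188). At 1108 bases its exons are the shortest of the 38 genes, and with the correction for exon length the log2 fold change was 0.18 and did not pass (adjusted p = 0.0904). Manf, a secreted factor that binds BiP, rose from 159.97 ± 23.4 to 210 ± 7.36 CPM (log2 fold change 0.40, SE 0.10, adjusted p = 0.00946), with an adjusted p-value of 0.0548 where control sample 2 was left out. Exons of Manf overlap those of Rbm15b on the same strand and of Dcaf1 on the other.

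Hsp90b1, the ER member of the HSP90 family, rose from 1968 ± 174 to 2424 ± 42.7 CPM (log2 fold change 0.30, adjusted p = 0.0338). Calr, the soluble lectin chaperone calreticulin, rose from 1781 ± 189 to 2229 ± 159 CPM (0.32, adjusted p = 0.0348). Hsp90b1 lost its call in 5 and Calr in 8 of the 17 alternatives, with adjusted p-values of up to 0.127 and 0.163. The membrane-bound relative of Calr, Canx or calnexin, which holds the ERSE too, was at 630 ± 36.8 and 620 ± 10.2 CPM (-0.02, adjusted p = 0.854, 95% interval -0.20 to 0.15). The lectin chaperones thus gave different values, and the difference between them was not tested. Creld2, a secreted ER stress marker, missed the threshold (0.26, SE 0.09, adjusted p = 0.0526) and passed in 8 of the 17 alternatives. The J proteins Dnajb9 (0.10) and Dnajc3 (0.04) did not pass. Hyou1, the nucleotide exchange factor of BiP, had the lowest value of the group, with 272, 262 and 283 CPM in control and 272, 242 and 269 CPM in neomycin samples. The ranges overlapped, and the log2 fold change was -0.06 (SE 0.08, adjusted p = 0.588).

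Among the disulfide isomerases all 3 genes passed. Pdia6 (chr12:17266545-17284770, plus strand), an isomerase that also binds IRE1, was at 971, 937 and 1193 CPM in control and 1408, 1484 and 1478 CPM in neomycin samples. It had the largest rise of the 38 genes (log2 fold change 0.49, SE 0.10, adjusted p = 0.00438), with no overlap. Pdia3 (chr2:121413775-121438687, plus strand), the partner of calreticulin and calnexin on glycoproteins, was at 1606, 1661 and 1871 CPM in control and 2345, 2329 and 2353 CPM in neomycin samples. The neomycin samples lay close together above all controls (log2 fold change 0.45, SE 0.09, adjusted p = 0.00421). Pdia4 had the smallest change of this group, with 576, 553 and 628 CPM in control and 765, 691 and 666 CPM in neomycin samples. It passed without overlap (log2 fold change 0.27, SE 0.09, adjusted p = 0.0360) and lost the call in 9 of the 17 alternatives, the correction for exon length among them. Exons of Pdia3 overlap those of Catsper2, and exons of Pdia6 those of Atp6v1c2, on the other strand.

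The number of higher folding genes depended on single libraries. Of the 10 chaperones, 2 were higher without control sample 1, 1 without control sample 2, 6 without control sample 3, 4 without neomycin sample 1, and 2 without neomycin sample 2 or without neomycin sample 3. Pdia3 and Pdia6 passed in every one of these fits. Over all 38 genes the higher calls were 5, 4 and 13 without control samples 1, 2 and 3, and 8, 5 and 4 without neomycin samples 1, 2 and 3. The higher genes among all tested moved as well, from 12.9% to between 6.22% and 15.9%.

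ER-associated degradation, which returns misfolded proteins to the cytosol, showed no called gene among its 3 members, by edgeR, DESeq2 or limma-voom or at an unadjusted p-value under 0.05. Herpud1, a membrane adaptor of the retrotranslocation complex, was at 49.8, 52.3 and 60.9 CPM in control and 60.6, 58.9 and 57.1 CPM in neomycin samples. Control sample 3 had the highest value of all 6 (log2 fold change 0.12, SE 0.08, adjusted p = 0.312), and without it the gene passed (0.22, adjusted p = 0.0362). Edem1, a mannosidase-like factor that marks glycoproteins for disposal, was at 44.8, 50.9 and 48.4 CPM in control and 47.3, 45.0 and 41.7 CPM in neomycin samples. These overlapped (log2 fold change -0.10, SE 0.08, adjusted p = 0.344). Sel1l, the scaffold of the HRD1 ligase, stood at -0.03 on the log2 scale (adjusted p = 0.771). Herpud1 is the member that holds the ERSE-II, a compact form of the element, at chr8:94386357-94386407 (plus strand), which 0.067% of tested genes with a promoter hold.
Herpud1: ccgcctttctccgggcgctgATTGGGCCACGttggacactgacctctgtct

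**Figure D4:**
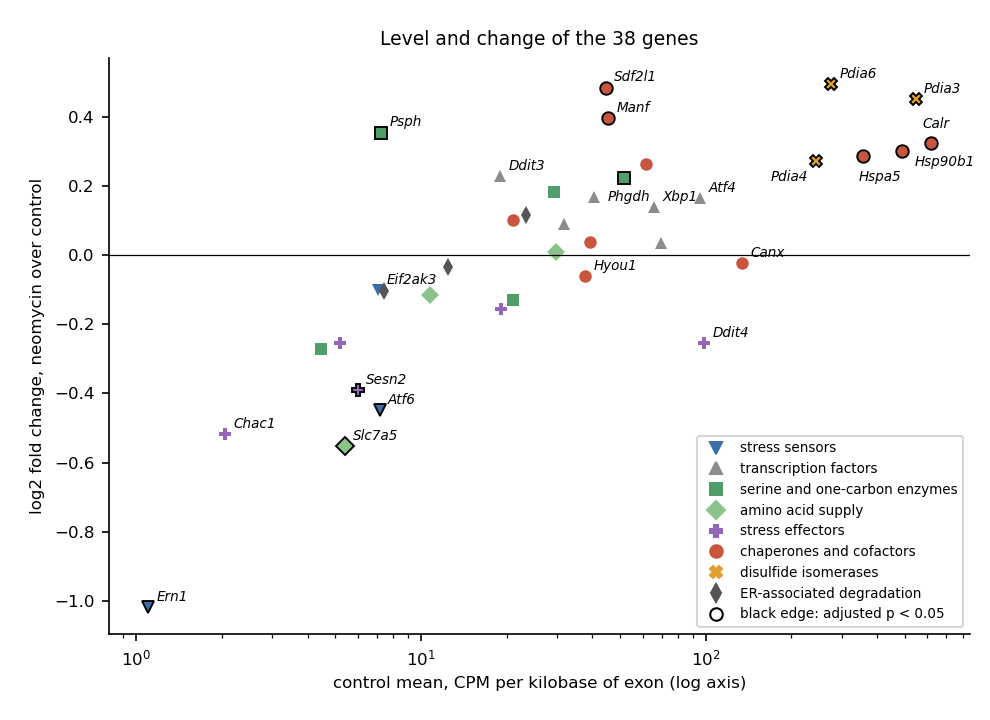
Mean control level of each gene in CPM per kilobase of exon (log axis) against its log2 fold change, neomycin over control, with a black edge where the adjusted p-value was under 0.05 and a symbol for each role. The 6 genes furthest to the right, all folding genes from 244 to 618 CPM per kilobase, carry a black edge above 0, and Ern1 stands alone at the lower left with 1.10 CPM per kilobase.

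Per kilobase of exon, the levels of the 38 genes in control samples ran from 618 CPM for Calr to 1.10 CPM for Ern1. The order began with Calr, Pdia3 (546 CPM per kilobase), Hsp90b1 (488), Hspa5 (356), Pdia6 (276) and Pdia4 (244). These 6 most abundant genes were all folding genes and all higher after neomycin. Canx followed at 134 CPM per kilobase, then Ddit4 at 98.9 and Atf4 at 95.4. The 4 lower genes lay near the end of the order, with Atf6 at 7.17, Sesn2 at 5.99, Slc7a5 at 5.41 and Ern1 at 1.10 CPM per kilobase. In sum the 38 genes took 11922 ± 995 CPM in control and 14437 ± 34.1 CPM in neomycin samples, of which the folding genes were the larger part.

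**Figure D5:**
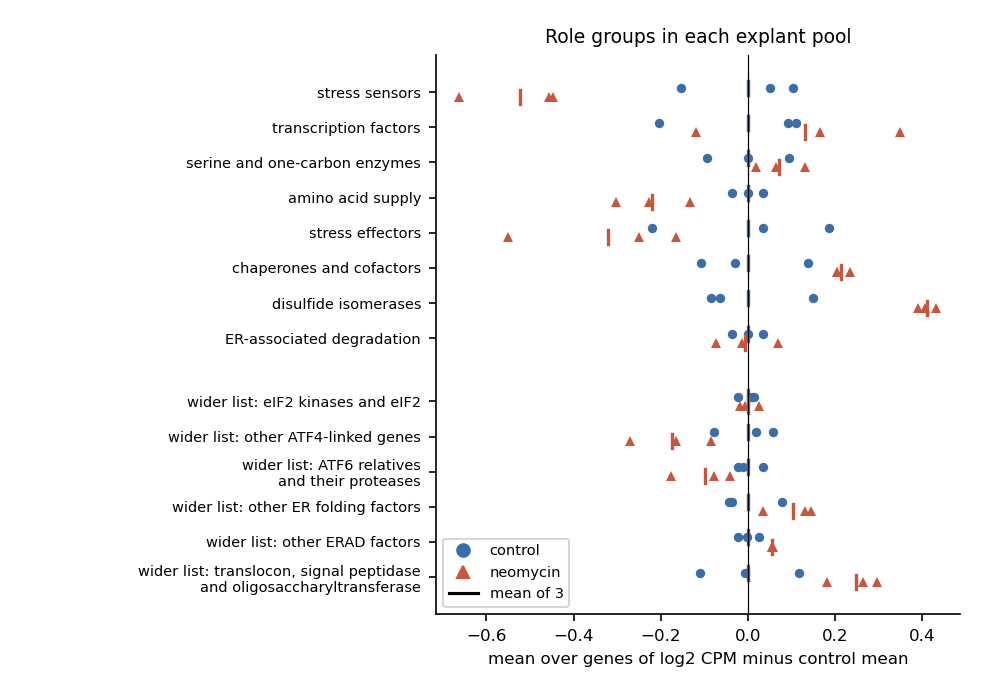
Mean over the genes of each role group of log2 CPM minus the control mean, in each of the 6 samples, with a short line at the mean of 3 samples, for the 8 groups of members and for 6 groups of the wider list of the same pathways. The neomycin samples of the isomerases and chaperones lie above all control samples and those of the sensors and amino acid supply below them, while those of the transcription factors overlap the controls.

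A wider list of 153 genes of the same pathways, none of them members, was set beside these results, and 151 of them were tested. Of these, 31 were higher (20.5%) and 15 were lower (9.93%), where 12.9% and 16.1% of all genes tested were higher and lower. By library totals alone the split was 22 higher and 23 lower, where 8.44% of all genes tested were higher and 20% lower. Most of the higher genes again belonged to the secretory pathway. In the group of the translocon, signal peptidase and oligosaccharyltransferase, which bring proteins into the ER and attach their first sugars, 11 of 24 were higher and 0 lower, with 14 higher and 0 lower at an unadjusted p-value under 0.05 and 13 higher and 0 lower with DESeq2. Examples were the translocon subunit Sec61g (log2 fold change 0.55) and the signal peptidase subunit Sec11c (0.55). Among other ER folding factors 11 of 41 were higher and 1 lower. Of these, Prdx4, a peroxiredoxin of the ER, rose from 161 ± 23.0 to 259 ± 25.9 CPM (0.69, SE 0.11, adjusted p = 0.000762), and the prolyl isomerase Fkbp7 by 0.60 (adjusted p = 0.000259). The count of other folding factors was 6 without control sample 1, control sample 2 or neomycin sample 2, 7 without neomycin sample 3 and 18 without control sample 3. In ER-associated degradation 6 of 26 were higher and 2 lower, among them Derl3, a derlin of secretory cells, at 0.62 (adjusted p = 0.00824). That count was 3 without neomycin sample 2.

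The ATF4-linked genes of the wider list were mostly below 0, with 26 of 36 below 0 (median log2 fold change -0.16). Of the 36, 1 was higher (2.78%) and 8 lower (22.2%), where 12.9% and 16.1% of all genes tested were higher and lower. The neutral amino acid transporter Slc1a5 fell from 15.4 ± 1.44 to 9.82 ± 1.197 CPM (-0.65, SE 0.12, adjusted p = 0.00239), and Stc2, a secreted glycoprotein, by 0.62 on the log2 scale (adjusted p = 0.0140). Taken as a group after their values were seen, 4 of the 7 amino acid transporters were lower and 0 higher. The lower ones were Slc1a5, Slc7a1 (-0.52), Slc1a4 (-0.49) and Slc38a2 (-0.45). With DESeq2 and at an unadjusted p-value under 0.05 the counts were also 4 lower and 0 higher. As the group was formed from its values and these recounts use the same samples, the counts only describe it. Of the 8 tRNA synthetases 0 were called in either direction, by edgeR, DESeq2 or limma-voom or at an unadjusted p-value under 0.05. The lower count of the 36 was 3 without control sample 2 and 4 without neomycin sample 2. In these fits 9.3% and 9.34% of all genes tested were lower. In the group of eIF2 kinases, eIF2 subunits and related factors 1 of 16 was higher (Impact, 0.31) and 2 lower (Eif2s3x, -0.39, and Gcn1l1, -0.36). These were 6.25% higher and 12.5% lower, and no kinase of this group was called. The counts were 4 higher and 3 lower without control sample 3 and 0 in either direction without control sample 1 or without neomycin sample 2. Of the relatives of ATF6, 1 of 8 was higher (12.5%) and 2 lower (25%). With each library left out in turn, 0 to 2 were higher and 1 or 2 lower. Creb3l2, a membrane-bound factor that drives secretory genes in cartilage, was at 37.8, 36.1 and 24.6 CPM in control and 19.8, 17.5 and 13.5 CPM in neomycin samples. It was the largest fall of the wider list (log2 fold change -0.96, SE 0.16, adjusted p = 0.00143), without overlap.

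Markers of several cell types of the explants also differed between the groups. The counts below stand beside 12.9% higher and 16.1% lower over all genes tested. Of 20 HC markers 17 were lower and 0 higher, with a summed level of 821 to 1006 CPM in control and 310 to 360 CPM in neomycin samples. Of 8 endothelial markers 6 were lower, with a median log2 fold change of -1.94 over the 8. Their sums, at 281 to 315 and 267 to 317 CPM, were mostly Emcn, which was at 252 ± 12.1 and 273 ± 26.2 CPM and was not called. Of 10 macrophage markers 5 were higher (90.3 to 119 and 128 to 158 CPM). Of 15 supporting cell markers 4 were higher and 4 lower (7480 to 9105 and 9968 to 13327 CPM). The largest part of this sum was Tectb, at 4230 ± 596 and 6445 ± 1520 CPM. The 4 lower markers were Prox1 (-1.46), Fgfr3 (-0.66), Ngfr (-0.60) and Lfng (-0.36), and the 4 higher were Tectb, S100a1, Gjb6 and Otoa. Of 11 markers of mesenchyme and fibrocytes 3 were higher and 3 lower (6701 to 7368 and 7641 to 7669 CPM). Of 7 cartilage and bone markers 3 were higher (6283 to 7619 and 7260 to 7559 CPM), of 9 neuronal markers 1 was higher and 4 lower (282 to 355 and 268 to 297 CPM), and of 7 glial markers 1 was higher and 2 lower (551 to 622 and 584 to 588 CPM). The largest part of the neuronal sum was Isl1, the 1 higher marker, at 130 ± 1.70 and 158 ± 18.2 CPM. That of the glial sum was Sox10, which was at 355 ± 21.7 and 347 ± 1.95 CPM and was not called. The bone and cartilage markers Comp, Ibsp and Bglap had too few counts to be tested. The part of these shifts in the values of the stress response genes was not tested.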

How the data were processed

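RNA from 3 control and 3 neomycin-treated explant pools was sequenced. The authors called bases with CASAVA 1.8, trimmed reads with Trimmomatic 0.23, aligned them to mm10 with HISAT2 and counted them per gene with HTSeq, per the labels and the methods, and deposited the raw counts of reads on each gene symbol as whole numbers, with no scaling. The strand setting and the handling of reads with several matches are not given in the sources used here, so genes with overlapping exons are named. Besides those named above, exons of Hsp90b1 overlap those of other genes on both strands. Exons of Atf5, Cebpb, Dnajb9, Eif2ak3, Ppp1r15a and Shmt2 overlap those of genes on the other strand. Exons of Pdia4 overlap those of a gene on the same strand. The design text of the series names another cell system with knockdowns, which matches none of the 6 samples, and was not used. No samples or genes were left out other than by the filter on low counts.

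Libraries were scaled with TMM, genes were filtered with filterByExpr, and neomycin was compared with control by the quasi-likelihood test of edgeR 4.0.16 in R 4.3.3, fitted over all 15988 genes with Benjamini-Hochberg adjustment. CPM are the counts of a gene scaled to the TMM-adjusted library size. A fold change over 1.5 was the further threshold of the study's methods, which used DESeq2. Intervals cover 95%. Coordinates and exon lengths came from GENCODE vM21 on the same build, which held all 38 members. Motifs were searched in RefSeq promoters with Python 3.11.15, and figures were drawn with matplotlib 3.10.9. The code was tested on simulated data.

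The members, their role groups, the wider list and the cell marker lists were chosen with earlier results of these data known. Full values were given for members called with a fold change over 1.5, the highest and lowest log2 fold change of each role group, the sensors, Atf4, Xbp1, Ddit3 and Hspa5. In the wider list the 3 largest rises and falls and the differentially expressed genes were named. Of these, levels were given for Prdx4, Slc1a5 and Creb3l2 and only the log2 fold change and adjusted p-value for the others. Full values of Pdia3 and Sesn2, and the names of other wider-list genes, were added after their values were seen. Alternatives were DESeq2 1.42.0, limma-voom (limma 3.58.1), other scalings and filters, an adjusted p-value under 0.01, the replicate number as a block, a correction of the trend on exon length (lowess, span 0.3), and each sample left out in turn.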

Additional observations from a re-analysis of the deposited data

How the results depend on the processing

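Of the 14 called members, 6 passed under all 17 alternatives, with Pdia3 and Pdia6 higher and Ern1, Atf6, Slc7a5 and Sesn2 lower. DESeq2, limma-voom, RLE and upper quartile scaling each gave 11 higher and 4 lower. Over all genes these gave 13.1% to 14.7% higher and 14.5% to 16.8% lower. Library totals alone gave 6 higher members, 2 differentially expressed lower members and 23 lower genes of the wider list. Over all genes 8.44% were higher and 20% lower by these totals. An adjusted p-value under 0.01 gave 4 higher members and 18 higher and 5 lower wider genes. Of all genes 5.47% were higher and 8.32% lower at that threshold. With each sample left out in turn, higher members numbered 4 to 13, differentially expressed members 0 to 2 higher and 1 to 2 lower, and wider genes 18 to 49 higher and 6 to 16 lower.

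The correction for exon length, run on 15853 genes, gave 6 higher, 7 lower and 2 differentially expressed lower members. Over all genes 10.4% were higher and 13.1% lower in that fit. The lower members thus lay above the share over all genes, where without the correction they lay below it. Phgdh, Calr, Sdf2l1 and Pdia4 lost their call. The cause was not tested. Replicate numbers shared between the groups were not taken to pair the samples. Over all genes the deviations of samples with the same number correlated at 0.17, 0.03 and 0.09, where each was required to be over 0.1, while over the 38 members they correlated at 0.73, 0.29 and 0.35. In both, control sample 2 correlated best with neomycin sample 3 and not with its own number. With the replicate block 15 members were higher, with Atf4 (adjusted p = 0.0460), Atf5 (0.0332), Ddit3 (0.0183), Psat1 and Creld2 added, and 6 lower, with Mthfd2 and Ddit4 added, and 44 and 28 wider genes. Over all genes 17.4% were higher and 20.2% lower with the block. With the block and the correction for exon length 8 members were higher, 11 lower and 2 differentially expressed lower. Of all genes 13.8% were higher and 15.6% lower in this fit.

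The sign turned in members that were not called. By library totals the log2 fold change was -0.037 for Nupr1, -0.062 for Slc3a2 and -0.030 for Dnajc3. With the correction for exon length it was -0.014 for Atf5, -0.17 for Cebpb, -0.092 for Nupr1, -0.035 for Slc3a2, 0.056 for Hyou1, 0.0032 for Canx, -0.019 for Dnajb9, -0.0064 for Creld2, -0.023 for Herpud1 and 0.12 for Sel1l, and with the block added -0.015, -0.17, -0.11, -0.040, 0.057, 0.0050, -0.016, -0.0051, -0.022 and 0.12 in the same order. With each sample left out in turn it ran from -0.13 to 0.36 for Cebpb, -0.14 to 0.18 for Nupr1, -0.069 to 0.097 for Slc3a2, -0.065 to 0.011 for Canx and -0.086 to 0.028 for Sel1l. With 3 samples in each group, the changes of genes with variable replicates, such as Cebpb, have wide intervals.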
